A study of Mus musculus with 6 samples.

Results

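The genes described here are 7 transcription factors of the lateral and caudal ganglionic eminences: Gsx2, Gsx1, Sp8, Sp9, Nr2f1, Nr2f2 and Prox1. They were taken by gene symbol from a table of 33084 genes, all 7 were found, and all 7 were among the 19616 genes with enough reads to be tested. The libraries are bulk RNA of microdissected mouse forebrain at E15.5, 3 from mutants (Dyrk1a<DlxCre/+>) and 3 from controls (wt). The + of the mutant genotype is the usual sign of a wild-type copy, and the labels do not otherwise state how many copies were inactivated. In the mutants Dyrk1a, which encodes a kinase of neuronal development, is inactivated within the Dlx5 domain, the GABAergic territory of the ventral forebrain. The whole forebrain was sampled, so recombined cells and all other forebrain cells share each library. The sources used here do not state whether wt embryos carry Cre or the conditional allele. Litters are not named either, and p-values therefore measure only the spread between these samples, which may be partly technical.

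The lateral eminence gives rise to striatal projection neurons and to interneurons of the olfactory bulb, and the caudal eminence to a large class of cortical interneurons. Gsx2 and Gsx1 are homeobox genes of dividing progenitors and set the ventral identity of the lateral eminence. Sp8 and Sp9 encode related zinc finger proteins that follow in newborn neurons, olfactory bulb interneurons among them. Nr2f1 and Nr2f2 encode the orphan nuclear receptors COUP-TFI and COUP-TFII, which mark the caudal eminence and guide interneuron fate and migration, and Prox1 is a homeobox gene kept on in caudal eminence interneurons. None of the last 3 belongs to the eminences alone: cortex and thalamus use Nr2f1, vessels use Nr2f2, and the dentate gyrus, thalamus and lymphatic vessels use Prox1.

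Of the 7 genes, 6 form pairs of paralogues. A read that lies wholly within a stretch that both coding sequences of a pair share without a mismatch fits both genes. The longest such stretches were 23 bases for Gsx2 and Gsx1, 44 for Sp8 and Sp9 and 59 for Nr2f2 and Nr2f1. They are given here as 30 bases of the coding strand (GENCODE M21 on GRCm38). Capitals mark the shared stretch, and letters in lower case beside it can match or differ. For the Sp and Nr2f pairs the printed letters are the first 30 bases of the longer stretch.
Gsx2: acgCAGCTCCTGGAGCTGGAGCGAGAattc
Gsx1: acaCAGCTCCTGGAGCTGGAGCGAGAgttc
Sp8: GGCAAGGTGTACGGCAAGACGTCGCACCTG
Sp9: GGCAAGGTGTACGGCAAGACGTCGCACCTG
Nr2f2: CAGCAGCACATCGAGTGCGTGGTGTGCGGG
Nr2f1: CAGCAGCACATCGAGTGCGTGGTGTGCGGG
The Gsx stretches lie in the homeobox at chr5:75077025-75077054 (Gsx2, forward strand) and chr5:147189834-147189863 (Gsx1, forward strand). The Sp stretches lie in the zinc finger region at chr12:118849501-118849530 (Sp8, forward strand) and chr2:73274121-73274150 (Sp9, forward strand). The Nr2f stretches lie at the start of the DNA-binding domain at chr7:70360081-70360110 (Nr2f2, reverse strand) and chr13:78198313-78198342 (Nr2f1, reverse strand). Each printed stretch lies within 1 exon. Over all annotated transcripts, the share of 50-base words that also occur in another gene on the same strand was 0% for Gsx2, Gsx1, Sp8 and Prox1, 0.881% for Sp9 (with Sp5), 0.196% for Nr2f1 (with Nr2f2) and 0.385% for Nr2f2. On the opposite strand, the share was 4.46% for Sp9 (with Cir1 and Gm2810), 1.1% for Nr2f1, 7.22% for Nr2f2, 1% for Prox1 and 0% for the other 3. The sources used here do not state the read length, so these shares hold for words of 50 bases.

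The libraries held between 25360030 and 28339650 counts in mutants and between 24646616 and 38315004 counts in controls. Dyrk1a itself averaged 175 ± 14.6 CPM (library-scaled counts, here with TMM normalization) in mutants and 177 ± 7.58 CPM in controls (SD, n = 3 each), a count over the whole gene that does not check the deleted part. The first principal component, with 37.4% of the variance, set the replicate 3 libraries of both genotypes apart from the other 4. Primitive red cell genes summed to 335 CPM in mutant replicate 3 and 337 CPM in control replicate 3, and to between 32.4 and 46.6 CPM in the others. Values without these libraries are given beside the results for the 7 genes, the paralogue ratios and the lineage and partner lists.

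None of the 7 genes differed between genotypes beyond the spread between these libraries. In edgeR's quasi-likelihood test, with p-values adjusted by Benjamini-Hochberg over all tested genes, 0 of the 7 passed 0.05 (adjusted p = 0.9999 for each), and 0 passed with replicates 1 and 2 alone. The background was 0% of the 19616 genes in either direction, so the count says nothing particular about these 7. The log2 fold change, mutant over control, lay above 0 for Sp9, Nr2f1 and Sp8 and below 0 for Gsx1, Prox1, Gsx2 and Nr2f2. The median was -0.10, against -0.01 over all tested genes, of which 9324 lay above 0 and 10292 below. With replicates 1 and 2 alone, 3 of the 7 (Gsx2, Sp9 and Nr2f1) lay above 0 and 4 below. At an unadjusted p under 0.05 there were 0 of the 7 and 376 of all genes, or 1.92% (1.19% higher and 0.729% lower in mutants). DESeq2 and limma-voom also called 0 genes, with 261 and 393 at an unadjusted p under 0.05. Groups that did not overlap were found for 0 of the 7 and for 6.89% of all tested genes (3.19% with mutants higher and 3.7% with mutants lower). In these bulk libraries, fewer cells of a type and less RNA per cell cannot be told apart.

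**Figure D1:**
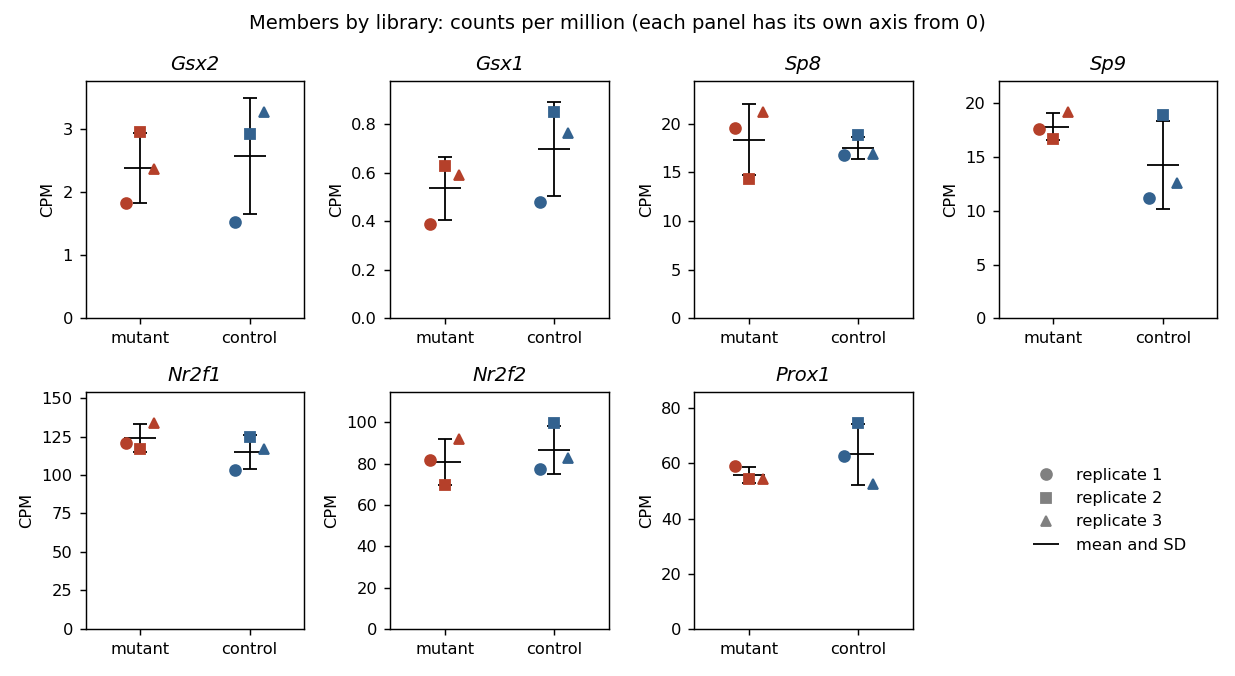
CPM of each gene in 3 mutant and 3 control libraries. Symbols give the replicate number and bars the mean and SD; every panel starts at 0, and mutant and control points overlap in all 7.

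Compared per kilobase of exon, the genes kept nearly the same order in every library. The length used counts the exons of all annotated transcripts. It was 8625 bases for Nr2f2, 5093 for Nr2f1 and 8390 for Prox1, against longest transcripts of 4222, 3207 and 7913 bases. The size of the gaps between genes depends on that choice. Nr2f1 was the most abundant, at 24.3 ± 1.74 CPM per kilobase in mutants and 22.6 ± 2.19 in controls (SD, n = 3 each). Nr2f2 came next, at 9.39 ± 1.29 in mutants and 10.0 ± 1.36 in controls. Prox1 had 6.66 ± 0.332 in mutants and 7.56 ± 1.32 in controls, and although its range over the 6 libraries overlapped that of Nr2f2, Nr2f2 was higher within each of the 6. Sp8 stood at 4.03 ± 0.79 CPM per kilobase in mutants and 3.84 ± 0.255 in controls. Sp9 stood at 3.54 ± 0.257 in mutants and 2.83 ± 0.816 in controls, and Sp8 and Sp9 did not separate. Sp8 was higher in 5 of 6 libraries, and the ratio of Sp8 to Sp9 ran from 0.947 to 1.66 over all 6. The progenitor genes were lowest, with Gsx2 at 1.43 ± 0.338 in mutants and 1.54 ± 0.553 in controls. Gsx1 was at 0.302 ± 0.0736 in mutants and 0.394 ± 0.11 in controls, below Gsx2 in all 6 libraries.

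Gsx2 (ENSMUSG00000035946, GRCm38 chromosome 5, 75075601 to 75077893, forward strand) represses dorsal identity in lateral eminence progenitors. It had 1.83, 2.95 and 2.36 CPM in mutant replicates 1, 2 and 3, against 1.53, 2.92 and 3.27 CPM in the controls. Replicate 1 was the lowest library of either genotype, and the mutants lay within the range of the controls. The fitted log2 fold change was -0.11 ± 0.31 (SE). The interval at 95%, from -0.81 to 0.58, covers changes from -42.8% to 49.4%. The sign of this value rested on single libraries: leaving out control replicate 3 gave 0.13, leaving out mutant replicate 1 gave 0.05 and leaving out control replicate 1 gave -0.39. Replicates 1 and 2 alone gave 0.13.

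Gsx1 (ENSMUSG00000053129, chromosome 5, 147188696 to 147190947, forward strand), the paralogue that promotes progenitor maturation, had the fewest reads of the 7 genes. Its counts were 11, 16 and 16 reads in mutants and 16, 21 and 29 reads in controls. For mutant replicate 1 the 95% exact Poisson interval, which covers counting error alone, ran from 5.49 to 19.7 reads, and for control replicate 3 from 19.4 to 41.6 reads. After scaling, Gsx1 had 0.387, 0.63 and 0.59 CPM in mutants and 0.48, 0.851 and 0.764 CPM in controls. Replicate 1 was again the lowest in each genotype and the groups overlapped. Mutants over controls, the log2 fold change was -0.37 ± 0.34 (SE), with a 95% interval from -1.15 to 0.40, and -0.36 with replicates 1 and 2 alone. It moved to -0.59 without control replicate 1 and to -0.18 without mutant replicate 1. It lay below 0 in all 17 alternative fits and passed in none (smallest adjusted p = 0.796).

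Progenitor markers also varied between the libraries. The 7 radial glia markers (Sox2, Hes5, Hes1, Nes, Slc1a3, Fabp7 and Vim) summed to between 1080 and 1320 CPM in mutants and between 995 and 1280 CPM in controls. The 7 proliferation markers summed to between 914 and 1540 CPM in mutants and between 842 and 1470 CPM in controls, with both replicate 3 libraries at the top. For Gsx2, control replicate 3 was the highest library, at 3.27 CPM, while mutant replicate 3 lay below mutant replicate 2 (64 and 75 reads). The exact Poisson intervals of these mutant counts, from 49.3 to 81.7 and from 59 to 94 reads, overlapped. The order of these mutant libraries therefore cannot decide whether Gsx2 followed that split. Of the 7 radial glia markers 6 lay above 0, with a median of 0.18 (0.20 with replicates 1 and 2 alone, and from 0.06 to 0.36 when leaving out a library). Any count above 0 in a list of 7 exceeds the 3.19% of all tested genes with mutants higher, so that share cannot decide an excess here. Groups did not overlap, with mutants higher, for 1 of the 7. That marker, Sox2, a progenitor transcription factor gene named after its values were seen, had 76.6, 72.4 and 110 CPM in mutants against 58.9, 71.1 and 66.1 CPM in controls, and did not pass (adjusted p = 0.9999, edgeR). The part of progenitor content in the Gsx values was not tested.

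Sp8 (ENSMUSG00000048562, chromosome 12, 118846329 to 118852576, forward strand) had 19.6, 14.3 and 21.2 CPM in mutants, against 16.8, 18.8 and 16.9 CPM in controls. The mutants held both the highest and the lowest library. Its log2 fold change was 0.07 ± 0.15 (SE), with a 95% interval from -0.28 to 0.42. The sign changed with the libraries used, to -0.04 without mutant replicate 3 and to -0.06 with replicates 1 and 2 alone, and the value was 0.22 without mutant replicate 2.

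Sp9 (ENSMUSG00000068859, chromosome 2, 73271925 to 73284706, forward strand), which acts beside Sp8 in striatal and olfactory bulb neurons, had the smallest p of the 7. It had 17.6, 16.7 and 19.2 CPM in mutants, against 11.2, 18.9 and 12.6 CPM in controls. The mutants lay close together and above 2 of the controls, while control replicate 2 stood among them. This gave a log2 fold change of 0.33 ± 0.19 (SE), a difference of 25.7% with a 95% interval from -6.8% to 69.4% (unadjusted p = 0.118, adjusted p = 0.9999, edgeR's quasi-likelihood test). All 17 alternative fits put it above 0, from 0.18 to 0.58. The value turned on the controls: it was 0.58 without control replicate 2 (unadjusted p = 0.00356, adjusted p = 1) and 0.18 without control replicate 1. With replicates 1 and 2 alone it was 0.20. In all, 1203 tested genes had a smaller p than Sp9.

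Sp9 shares 270 exonic bases with Cir1, a transcriptional corepressor gene on the opposite strand. The libraries mark strand, but how strand was used in counting is not stated, so reads of such pairs could be mixed. Cir1 had 12.2, 11.7 and 11.5 CPM in mutants and 12.1, 13.7 and 11.5 CPM in controls, a log2 fold change of -0.08 ± 0.12 (SE). Its counts were between 59.6% and 109% of those of Sp9. The part of Cir1 reads in the Sp9 values was not tested.

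Nr2f1 (ENSMUSG00000069171, chromosome 13, 78188973 to 78199757, reverse strand) had 121, 117 and 134 CPM in mutants, against 103, 125 and 117 CPM in controls. The highest library was a mutant and the lowest a control, with the other 4 between. The log2 fold change of 0.10 ± 0.10 (SE) had a 95% interval from -8.3% to 25.8% in change, and the value was 0.06 with replicates 1 and 2 alone. It was 0.00 once the trend of each library on gene GC content and exonic length was removed, Nr2f1 being 60.2% GC.

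Nr2f2 (ENSMUSG00000030551, chromosome 7, 70351944 to 70366735, reverse strand) had 81.7, 69.5 and 91.7 CPM in mutants, against 77.2, 99.8 and 82.8 CPM in controls. Mutant replicate 2 was lowest and control replicate 2 highest, and the other 4 libraries lay within the span between them. For Nr2f2 the log2 fold change was -0.10 ± 0.13 (SE), with a 95% interval from -23.8% to 14.9% in change. Leaving out control replicate 2 gave 0.02, leaving out mutant replicate 2 gave 0.00, and the value was -0.22 with replicates 1 and 2 alone.

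At its 5′ end each of these nuclear receptor genes overlaps a non-coding RNA gene of the opposite strand. A830082K12Rik, which shares 123 exonic bases with Nr2f1, had 27.0, 25.4 and 29.2 CPM in mutants and 28.8, 31.2 and 29.3 CPM in controls (fold change in log2 of -0.13 ± 0.10, SE). B130024G19Rik, which shares 643 exonic bases with Nr2f2, had 27.9, 26.7 and 30.5 CPM in mutants and 29.5, 26.9 and 31.2 CPM in controls (-0.04 ± 0.10, SE). Their counts were between 21.6% and 27.8% of those of Nr2f1 and between 27.0% and 38.3% of those of Nr2f2. Gm44946 and Gm44948, long non-coding RNA genes within 10 kb downstream of Nr2f2 on its own strand, had log2 fold changes of -0.19 ± 0.29 and -0.09 ± 0.29 (SE). None of these 4 genes passed.

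Prox1 (ENSMUSG00000010175, chromosome 1, 190118035 to 190170714, reverse strand) had 59.1, 54.2 and 54.3 CPM in mutants, against 62.8, 74.8 and 52.7 CPM in controls. The mutants lay close together, below 2 of the controls and above control replicate 3. Prox1 thus had a log2 fold change of -0.18 ± 0.13 (SE), a change of -11.8% with a 95% interval from -27.8% to 7.7% (unadjusted p = 0.188, adjusted p = 0.9999, edgeR's quasi-likelihood test). All 17 alternatives put it below 0, from -0.29 without control replicate 3 (unadjusted p = 0.0248, adjusted p = 0.881) to -0.05 without control replicate 2. With replicates 1 and 2 alone it was -0.27 (unadjusted p = 0.0203, adjusted p = 0.603).

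The antisense gene Prox1os, which shares 133 exonic bases with Prox1, had 1.62, 1.38 and 0.996 CPM in mutants and 1.32, 1.7 and 0.896 CPM in controls, at most 2.74% of the Prox1 count. Gm28172, a second antisense gene, had between 0 and 5 reads in every library and was not tested. The 6 markers of hippocampus and dentate gyrus, where Prox1 is also expressed, summed to between 1910 and 2230 CPM in mutants and between 2060 and 2420 CPM in controls. Most of that sum was Nfib (means of 1310 CPM in mutants and 1390 CPM in controls) and Zbtb20 (639 and 709 CPM). Of the 6 markers, 2 lay above 0 in log2 fold change and 4 below, with a median of -0.08. The 8 thalamic and caudal diencephalic markers summed to between 208 and 253 CPM in mutants and between 242 and 254 CPM in controls. The 4 markers of lymphatic and venous endothelium summed to between 69.9 and 78.4 CPM in mutants and between 65.9 and 84.0 CPM in controls. No marker of these lists was at 0 in any library, and the part of these tissues in the Prox1 and Nr2f2 values was not tested.

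**Figure D2:**
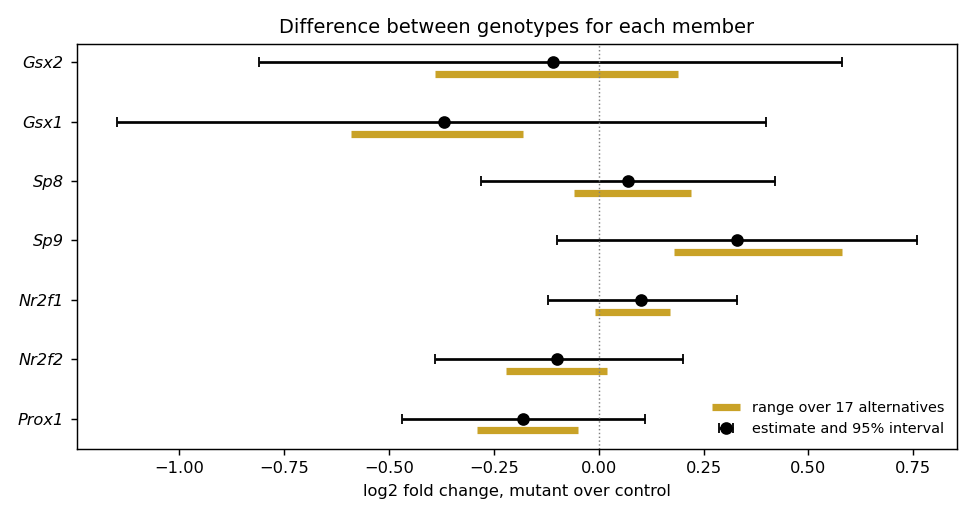
Log2 fold change of each gene, mutant over control: points are edgeR estimates, black bars their 95% intervals and yellow bars the range over 17 alternative fits. Every interval spans 0; the alternatives stay above 0 for Sp9 and below 0 for Gsx1 and Prox1.

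Ratios of paralogues within a library do not depend on how the library is scaled. Gsx2 had 4.73, 4.69 and 4.0 reads per Gsx1 read in mutants, against 3.19, 3.43 and 4.28 in controls, a difference in mean log2 ratio of 0.31 with a pooled SD of 0.18 (0.51 with replicates 1 and 2 alone). Sp8 had 1.11, 0.856 and 1.10 reads per Sp9 read in mutants, against 1.5, 0.996 and 1.34 in controls, a difference of -0.31 with a pooled SD of 0.26 (-0.32 with replicates 1 and 2 alone, and, leaving out a library, from -0.48 for control replicate 2 to -0.19 for mutant replicate 2 and -0.18 for control replicate 1). The groups overlapped for both pairs. Nr2f2 had 0.678, 0.594 and 0.685 reads per Nr2f1 read in mutants, against 0.747, 0.795 and 0.706 in controls. Here all mutants lay below all controls, and the log2 ratio differed by -0.20 with a pooled SD of 0.10 (-0.28 with replicates 1 and 2 alone). No test was made of the ratios. That separation did not hold once GC content and length were taken into account: Nr2f2 is 45.3% GC and Nr2f1 60.2%, and with the trend of each library removed the difference was -0.04, with log2 ratios from -0.61 to -0.47 in mutants and from -0.58 to -0.37 in controls.

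**Figure D3:**
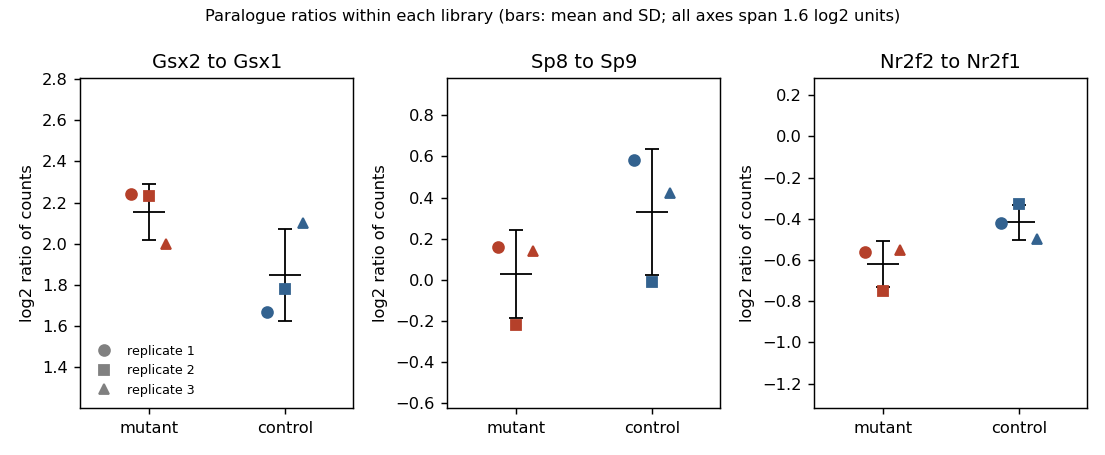
Log2 ratio of read counts of Gsx2 to Gsx1, Sp8 to Sp9 and Nr2f2 to Nr2f1 within each library, with mean and SD. The Nr2f2 to Nr2f1 points of mutants all lie below those of controls in these counts; the other pairs overlap.

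Other genes of the same lineages gave no call either. Of 26 lateral eminence genes, which cover striatal and olfactory bulb neurons, 0 passed, with 18 above and 8 below 0 and a median of 0.07 in log2 fold change (17, 9 and 0.09 with replicates 1 and 2 alone). Zfp503, a striatal transcription factor gene, had 13.9, 15.8 and 15.5 CPM in mutants and 7.43, 13.9 and 10.2 CPM in controls, or 0.53 ± 0.21 (SE). Tac1, which encodes substance P, averaged 8.70 ± 0.872 CPM in mutants and 7.06 ± 1.14 CPM in controls (SD, n = 3 each). Bcl11b, a striatal and deep-layer cortical transcription factor gene, averaged 336 ± 6.92 CPM in mutants and 303 ± 35.9 CPM in controls. Without mutant replicate 1 the split was 13 above and 13 below, with a median of 0.01. The median was 0.18 without mutant replicate 3 and also without control replicate 2, and 0.04 without mutant replicate 2 or control replicate 3. Mutants lay above controls without overlap for 2 of the 26 genes, Zfp503 and Tac1, against the 3.19% of all tested genes in that direction.

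Of 14 tested caudal eminence genes, 0 passed, with 9 above and 5 below 0. Their median was 0.06, and 0.07 with replicates 1 and 2 alone, but -0.03 without mutant replicate 1, 0.00 without mutant replicate 2 and -0.04 without control replicate 3. It was 0.16, with 12 above and 2 below, without mutant replicate 3, and 0.15 without control replicate 2. The interneuron peptide gene Vip, the other gene of that list, had no read in any library. The neuropeptide gene Npy had a log2 fold change of 0.38 ± 0.23 (SE) and Zeb2, a repressor that directs migrating interneurons to the cortex, had -0.13 ± 0.11. Htr3a, a receptor gene by which caudal eminence interneurons are often recognised, averaged 4.33 ± 1.32 CPM in mutants and 4.44 ± 0.998 CPM in controls. Reln, which encodes the secreted guidance protein reelin, averaged 835 ± 84.8 CPM in mutants and 834 ± 63.7 CPM in controls.

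Of 15 genes of the neighbouring medial eminence, measured here in the whole forebrain, 0 passed, with 9 above 0 and 6 below. Their median was 0.07 (0.02 with replicates 1 and 2 alone, 0.01 without control replicate 1 and 0.16 without control replicate 2). The smallest p of that list belonged to Nkx6-2 at 0.77 ± 0.30 (SE), Sst at 0.46 ± 0.22 and Lhx8 at 0.21 ± 0.14. Nkx6-2 had few reads, 25, 23 and 36 in mutants and 20, 11 and 28 in controls. Of 8 genes shared by GABAergic lineages, 0 passed and 7 lay above 0, with a median of 0.03 (6 above, 2 below and 0.10 with replicates 1 and 2 alone). Leaving out control replicate 2 gave a median of 0.14, leaving out control replicate 3 gave 0.09 and leaving out mutant replicate 3 gave 0.07. The split was 3 above and 5 below, with a median of -0.06, without control replicate 1, and 4 and 4 with the GC content and length trend removed. Slc32a1, the vesicular GABA transporter gene, had 0.16 ± 0.18 (SE) and Dlx6, a homeobox gene of these lineages, had 0.10 ± 0.14. The 15 medial genes summed to between 828 and 924 CPM in mutants and between 852 and 938 CPM in controls. Much of that sum was Zic1 (means of 219 CPM in mutants and 202 CPM in controls), Sox6 (183 and 187 CPM) and Erbb4 (181 and 186 CPM).

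Relatives and partners of the 7 factors were measured too. Of 9 tested paralogues, 0 passed, 4 lay above 0 and 5 below, with a median of -0.03 (-0.13 with replicates 1 and 2 alone and 0.08 without mutant replicate 2). Nr2f6, the third member of the COUP-TF family, had a log2 fold change of 0.50 ± 0.13 (SE), with mutants between 15.8 and 17.4 CPM and controls between 10.1 and 13.0 CPM. Sp5 and Sp6 had 0.37 ± 0.19 and -0.61 ± 0.40 (SE). Sp6 had few reads, 14, 15 and 6 in mutants and 27, 17 and 19 in controls. Mutants lay above controls without overlap for 2 of the 9, Nr2f6 and Sp5, against 3.19% of all tested genes in that direction. Nr2f6 is 67.3% GC, and its value with the GC content and length trend removed is not reported here. Of 9 corepressor and partner genes, 0 passed, 6 lay above 0 and 3 below, with a median of 0.02 (0.05 with replicates 1 and 2 alone, from -0.02 to 0.07 when leaving out a library, and 3 above and 6 below without mutant replicate 2 or without control replicate 1), and the smallest p belonged to Zfpm1 at 0.51 ± 0.23, Bcl11a at -0.07 ± 0.09 and Tle4 at -0.07 ± 0.10 (SE).

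The profiles over the 6 libraries show which genes varied together within this forebrain sample. Likeness was measured as the root mean square difference of log2 CPM, each gene centred on its own mean, among the genes of all lists averaging at least 1 CPM. Gsx2 was the second nearest to Gsx1, at 0.20 log2 units. Zfp503 was nearest to Sp9 at 0.15, and Zic1 to Sp8 at 0.08. Tshz1, a lateral eminence gene, was nearest to Nr2f1 at 0.03, Bcl11a to Nr2f2 at 0.08 and Zbtb20, a hippocampal gene, to Prox1 at 0.05. The second nearest were Foxj1 for Gsx2, Sp3 for Sp8, Prox2 for Sp9, Npas3 for Nr2f1, Lef1 for Nr2f2 and Zeb2 for Prox1. These 6 points share depth, dissection and library preparation, and genes that vary little lie near each other by this measure: the SD over libraries was 0.12 log2 units for Nr2f1 and 0.42 for Gsx2.

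**Figure D4:**
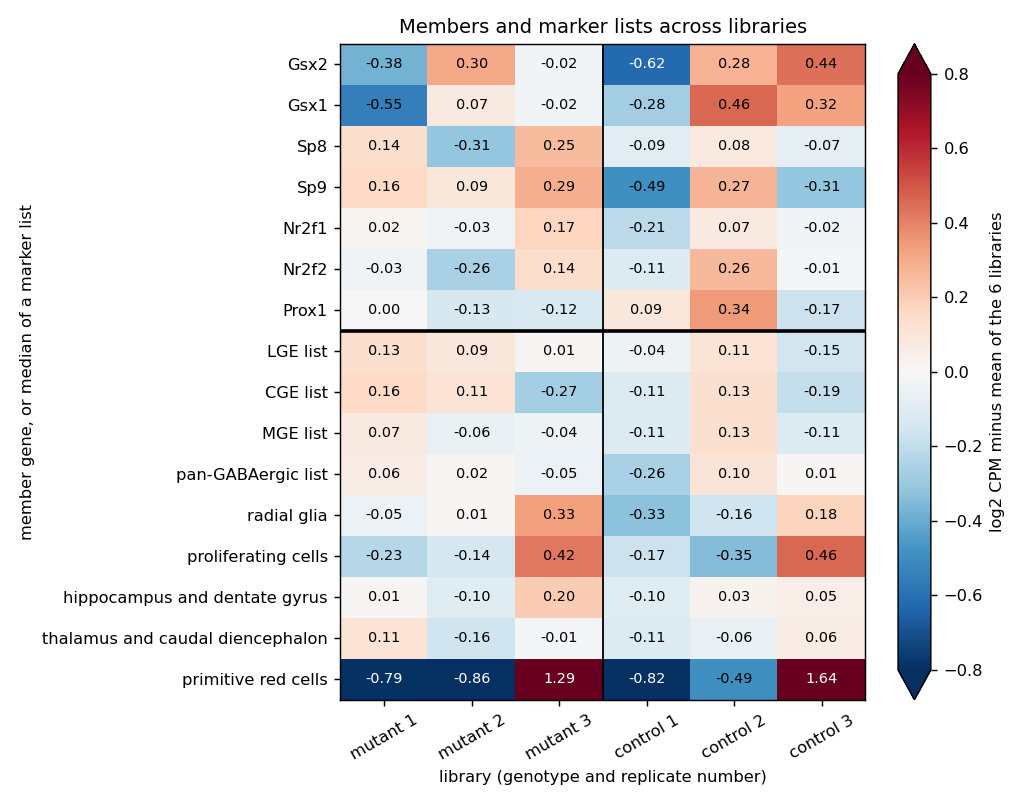
Log2 CPM of each gene minus its mean over the 6 libraries, and below the line the median of marker lists on the same scale, with mutants left of controls. Control replicate 1 is low for Gsx2 (-0.62) and Sp9 (-0.49), mutant replicate 1 for Gsx1 (-0.55), and the replicate 3 libraries are high for proliferating and primitive red cell markers.

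Control replicate 1 was the lowest library for Gsx2, Sp9 and Nr2f1, and control replicate 2 was the highest for Gsx1, Nr2f2 and Prox1. Control replicates 1 and 2 stood at -0.26 and 0.10 for the median GABAergic gene and at -0.11 and 0.13 for the median medial eminence gene. For the median cortical excitatory marker they stood at -0.19 and 0.14. Other cell type markers differed in direction. The median was higher in control replicate 1 for proliferating cells (-0.17 and -0.35), endothelium (0.02 and -0.08), mural cells and meninges (0.07 and -0.03) and microglia (0.14 and -0.03). It was lower there for the remaining marker lists, such as radial glia (-0.33 and -0.16) and choroid plexus (-0.04 and -0.02). For Prox1, control replicate 3 was the lowest library, and mutant replicates 2 and 3 came next at 54.2 and 54.3 CPM.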

How the data were processed

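The authors deposited unnormalized counts of reads for each gene, with 1 column per library. Per the series' design text and the submitters' processing notes, single-end reads of TruSeq Stranded Total RNA libraries were aligned with HISAT2 to mouse GRCm38 release 93, handled with SAMtools 1.9 and counted with HTSeq 0.9.1; counting mode and strand setting are not stated there. The labels name the molecule as polyA RNA, whereas the protocol describes ribosomal RNA depletion. Symbols, coordinates, exonic length and GC content came from GENCODE M21 on the same build (32888 identifiers matched).

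Counts were analysed with edgeR 4.0.16 (TMM scaling, filterByExpr with a minimum count of 10 and minimum total of 15, robust quasi-likelihood F test, mutant over control, no covariate, Benjamini-Hochberg over 19616 genes), with DESeq2 1.42.0 and limma 3.58.1 as alternatives in R 4.3.3, and the edgeR fit was tested on simulated data. Each standard error is the fitted log2 change divided by the root of F. Log2 CPM used a prior count of 2. Named genes are the 7 factors, annotated genes that overlap them or start within 10 kb, the 3 genes of smallest p per lineage or partner list, and the 2 genes nearest in profile; other genes were named as background markers after their values were seen. The members and lists were chosen with earlier results of these data known. Gm24556 near Gsx1 and Gm38604 near Nr2f1 were not analysed here. Some genes that the naming rule selects are not reported here.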

Additional observations from a re-analysis of the deposited data

How the results depend on the processing

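No gene of the 7 passed the threshold in any of the 17 alternative fits: other size factors, no filter, DESeq2, limma-voom with and without sample weights, no robust estimation, a replicate block, removal of the GC content and length trend with and without that block, replicates 1 and 2 alone, and each library left out. The count over all genes was 3 with replicates 1 and 2 alone (Hist1h2ag, Pisd-ps1 and Tmem181b-ps, named after their values were seen) and 0 in the other fits. Signs turned for 4 genes. Gsx2 was 0.19 in limma-voom with sample weights and 0.13 with replicates 1 and 2 alone, and from -0.39 to 0.13 when leaving out a library. Sp8 was -0.06 with replicates 1 and 2 alone, and from -0.04 to 0.22 when leaving out a library. Nr2f1 was 0.00 with the GC and length trend removed and -0.01 with the replicate block added. Nr2f2 ranged from -0.19 to 0.02 when leaving out a library. The replicate numbers do not pair the libraries by the labels, and deviations of libraries with the same number correlated at 0.24, 0.07 and 0.36. Across different numbers the correlations ran from -0.47 (mutant 1 with control 3) to 0.35 (mutant 1 with control 2). With the replicate block Sp9 was 0.36 and Prox1 -0.17, and no call changed. The Gsx2 to Gsx1 log2 ratio difference was 0.51 with replicates 1 and 2 alone. The removal of the GC trend from the ratios was chosen after seeing the data. The cause of these changes was not tested. Depth limits Gsx1, with 11 to 29 reads per library.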
